A study of Mus musculus with 2 samples.

Results

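The cells described here are neutrophils of mouse skin tumours, read from single-cell RNA libraries. A barcode, the tag that marks the transcripts of one droplet, was counted as a neutrophil when it held at least 500 genes, at most 15% mitochondrial transcripts, at least 100 transcripts of S100a8 and S100a9 per 10000, and at least 2 transcripts of Csf3r, Cxcr2, Retnlg, Il1r2 and Hdc together. That rule selected 884 of the 29006 barcodes that passed the gene and mitochondrial limits, 113 of 7522 in the library labelled Ctrl-D and 771 of 21484 in the library labelled Eed iKO-D. The members were selected on their measured transcripts, so the levels of those 7 genes are given below as a description. Transcripts were counted as unique molecular identifiers (UMIs), which collapse copies of 1 captured molecule.

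Both libraries came from dorsal skin tumours of 5-month-old mice that had been painted weekly with the carcinogen DMBA for up to 20 weeks. Ctrl-D mice carried Eed flox/flox alleles and received ethanol, and Eed iKO-D mice carried K14CreERT2 with Eed flox/flox and received 4-hydroxytamoxifen from postnatal day 50 on 4 days. The labels spell the driver K14CrERT2 and call the cells epidermal cancer cells, whereas whole tumours were dissociated and freed of dead cells, so that other cells could be captured too. Cre was driven by the keratin 14 promoter, which is active in basal keratinocytes, and neutrophils are not known to use it. Genotype and tamoxifen differ together between the 2 groups and cannot be told apart. Each group was 1 library, and the number of animals in each is not given in the sources used here. No test between the libraries was possible, and the intervals in brackets are exact at 95% and cover nothing beyond counting error. EED is a subunit of Polycomb repressive complex 2, which methylates histone H3 at lysine 27.

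Neutrophils are short-lived granulocytes made in the bone marrow. They fill their granules in order: primary granules with myeloperoxidase and elastase at the promyelocyte stage, specific granules with lactoferrin, cathelicidin and neutrophilic granule protein at the myelocyte and metamyelocyte stages, and gelatinase granules last. Granule transcripts are switched off before the cells enter the blood, while receptors such as CXCR2 and inflammatory cytokines such as interleukin 1 beta appear late or on activation. In tumours neutrophils are known both for killing and for supporting growth, and specific granule transcripts are usually found in precursors in the marrow.

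The 3 genes used to mark immature cells are Ngp (neutrophilic granule protein), Camp (cathelicidin) and Ltf (lactoferrin). All 3 lie on mouse chromosome 9 within 1.2 Mb (GENCODE vM21 on mm10): Camp at 109847379 to 109849617 on the minus strand, Ngp at 110419747 to 110423012 on the plus strand and Ltf at 111019271 to 111042767 on the plus strand. The DNA before their start sites is shown because these 3 transcripts define the immature set, beside that of Il1b (chromosome 2, minus strand), whose transcript showed the opposite pattern. Sequences are the RefSeq promoter windows of build GRCm38.p6, read 5′ to 3′ on the gene's strand and ended before the first base of the GENCODE gene. Capitals mark matches, on either strand, to a C/EBP pattern (TTNNGNAA) or a PU.1 core (GAGGAA), binding motifs of transcription factors of the granulocyte lineage.
Ngp, chr9:110419558-110419746: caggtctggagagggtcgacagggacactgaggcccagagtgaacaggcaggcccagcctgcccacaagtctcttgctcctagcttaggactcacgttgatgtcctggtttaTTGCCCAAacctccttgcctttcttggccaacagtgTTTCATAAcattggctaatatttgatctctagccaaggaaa
Camp, chr9:109849618-109849706: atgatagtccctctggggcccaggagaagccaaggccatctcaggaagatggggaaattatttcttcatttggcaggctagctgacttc
Ltf, chr9:111019042-111019270: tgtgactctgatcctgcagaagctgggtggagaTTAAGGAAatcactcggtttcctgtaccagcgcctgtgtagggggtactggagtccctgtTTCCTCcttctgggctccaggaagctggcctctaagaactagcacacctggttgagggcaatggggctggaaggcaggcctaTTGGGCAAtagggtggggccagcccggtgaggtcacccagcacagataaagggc
Il1b, chr2:129371140-129371389: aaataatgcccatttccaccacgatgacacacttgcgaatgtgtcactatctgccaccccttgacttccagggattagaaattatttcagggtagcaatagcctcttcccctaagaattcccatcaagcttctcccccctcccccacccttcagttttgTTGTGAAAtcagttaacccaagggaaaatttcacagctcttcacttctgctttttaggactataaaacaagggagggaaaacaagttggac
Over the whole 250 bases before the RefSeq start, Ngp had 3 matches, Ltf had 3, Il1b had 1 and Camp had 0. Of all 27025 genes with such windows, 40.3% held the C/EBP pattern and 25.9% the PU.1 core, so single matches were common. Of 14 specific granule genes with a window, 10 held the C/EBP pattern and 7 the PU.1 core, against 11 and 5 of 17 cytokine genes. A match describes letters and does not show a bound site.

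The label was checked on 20 neutrophil markers that the rule did not use. In Eed iKO-D, 16 of the 20 were at least 1.5 times higher in neutrophils than in each other cell class, against 5.61% of the 10598 genes compared. The 4 others were Itgam, Slpi, Msrb1 and Cd300ld. In CPM, the UMIs of a gene summed over a set of barcodes and scaled to a common total, Stfa2l1, a stefin protease inhibitor, stood at 903 in neutrophils and at 3.50 in the highest other class. G0s2, an inhibitor of lipolysis, stood at 1846 against 14.2, Lcn2 (lipocalin 2, which binds siderophores) at 1488 against 70.2, and Acod1, which makes itaconate, at 2127 against 109. Interleukin 1 beta and the chemokine Cxcl2 were shared with monocytes: Il1b was at 7237 CPM in neutrophils and 5343 in monocytes, and Cxcl2 at 12278 and 5908. Markers of mast cells, basophils and eosinophils summed to 8.38, 2.73 and 16.0 CPM in Eed iKO-D neutrophils and to 7.71, 0 and 15.4 CPM in Ctrl-D neutrophils.

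**Figure D1:**
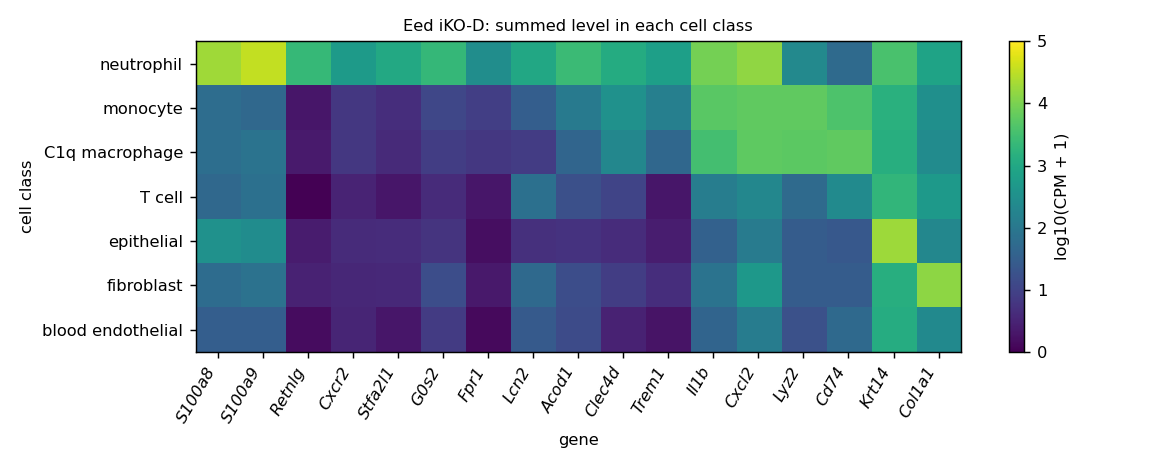
Level of 17 genes (columns) in 7 cell classes of the Eed iKO-D library (rows) as log10(CPM + 1), from summed UMIs of barcodes that meet 1 class rule. S100a8, S100a9, Retnlg, Cxcr2, Stfa2l1, G0s2 and Acod1 are bright in the neutrophil row, while Il1b and Cxcl2 are also bright in monocytes and C1q macrophages.

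Several properties of the libraries touch every comparison. Neutrophil barcodes were shallower in Ctrl-D, with a median of 1332 UMIs and 634 genes, than in Eed iKO-D, with 5175 UMIs and 1653 genes, and the Ctrl-D median lay near the limit of 500 genes. Epithelial barcodes went the other way, with medians of 18289 UMIs in Ctrl-D against 2962 in the Eed iKO-D library. A set of 5 RNAs, chosen after seeing the data (Gm42418, which overlaps ribosomal RNA sequence, AY036118, Cmss1, Camk1d and Lars2), made up a median of 1.02% of neutrophil UMIs in Ctrl-D against 24.5% in the Eed iKO-D library. Levels were therefore also computed without these 5 RNAs in the totals. Of the Ctrl-D neutrophils, 10 also met the rule of another cell class (5 the epithelial and 5 the T cell rule), and these 10, which ran from 1247 to 65804 UMIs, held 58.9% of the summed UMIs. In Eed iKO-D, 69 did so and held 23.8%. Leaving them out gave 103 Ctrl-D and 702 Eed iKO-D barcodes, called single-class barcodes below. Transcripts typical of other cell types were found in neutrophil barcodes. The 7 keratins of the epithelial rule took a median of 15.7 per 10000 UMIs in Ctrl-D neutrophils and 64.7 in Eed iKO-D neutrophils, against 314 and 242 in epithelial barcodes. Xist without Y-linked transcripts was found in 5 Ctrl-D and 209 Eed iKO-D neutrophils, Y-linked transcripts without Xist in 45 and 135, and both in 2 and 50. The libraries shared 49 barcode sequences, of which 3 were neutrophils, all in Eed iKO-D. None of these properties was tested as a cause of a difference below.

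The calgranulins S100a8 and S100a9, which form the zinc- and manganese-binding protein calprotectin, ranged widely. Per 10000 UMIs, their sum ran from 102.4 over a median of 497 to 2354 in Ctrl-D and from 100.3 over 335 to 3490 in Eed iKO-D, so that the libraries overlapped across the range. Just inside the limit, 5 Ctrl-D and 52 Eed iKO-D neutrophils had 100 to 120 per 10000, and just outside it 3 and 53 barcodes with the receptor transcripts had 80 to 100. Receptor transcripts numbered exactly 2 in 2 Ctrl-D and 17 Eed iKO-D members. Barcodes that passed the S100 limit and had 0 or 1 receptor transcripts numbered 22 and 8 in Ctrl-D and 62 and 10 in Eed iKO-D. Of the epithelial barcodes, 0.822% [0.532 to 1.21] in Ctrl-D against 0.614% [0.428 to 0.852] in the Eed iKO-D library reached the S100 limit.

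**Figure D2:**
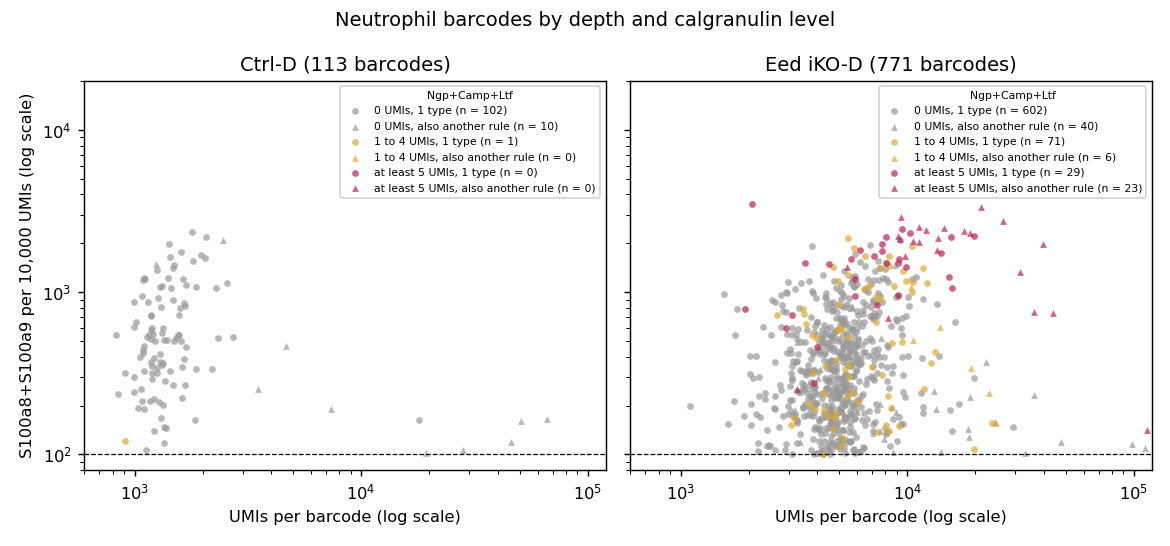
Each point is 1 neutrophil barcode, with UMIs on the x axis and S100a8+S100a9 per 10000 UMIs on the y axis (both log scales), coloured by Ngp+Camp+Ltf UMIs. Triangles also meet the rule of another class. The dashed line is the rule's limit of 100. Most Ctrl-D points lie near 1332 UMIs and most Eed iKO-D points near 5175, and barcodes with at least 5 Ngp+Camp+Ltf UMIs occur in Eed iKO-D and lie high on the y axis.

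Neutrophils made up 1.502% [1.24 to 1.803] of the kept barcodes in Ctrl-D against 3.59% [3.34 to 3.85] in the Eed iKO-D library. These intervals count barcodes of 1 library each and do not show how far shares vary between animals. The gap depended on the gene limit: with at least 200 genes the shares were 1.90% and 3.55%, and with at least 1000 genes they were 0.156% (11 barcodes) and 5.83%. A share of captured barcodes also moves with the recovery of the other cells and with fewer neutrophils or less RNA in each, which cannot be told apart here.

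Cells with marrow-type granule transcripts were found in 1 library. With at least 5 UMIs of Ngp, Camp and Ltf together, 52 of 771 Eed iKO-D neutrophils (6.74% [5.08 to 8.75]) and 0 of 113 Ctrl-D neutrophils counted as immature. A count of 0 allows up to 2.655% of Ctrl-D barcodes with that many UMIs (3 counts of 113), at the lower depth of that library, and so does not limit the share of cells that express these genes. Without barcodes that met another rule the immature set was 29 of 702, or 4.13% [2.78 to 5.88]. A further 77 Eed iKO-D neutrophils and 1 Ctrl-D neutrophil had 1 to 4 UMIs, and 642 and 112 had 0. Among the 52 the sum had a median of 52.5 and reached 1636, and 21 had at least 100. Just inside the limit 7 had 5 or 6, and just outside it 9 had 3 or 4. After each barcode was thinned to 1000 UMIs, which left out 8 shallower Ctrl-D barcodes, 5.71% [4.18 to 7.59] of 771 Eed iKO-D and 0 of 105 Ctrl-D neutrophils kept at least 2 such UMIs. As background, 3.45% of Eed iKO-D and 0.197% of Ctrl-D epithelial barcodes, with the median depths given above, held any such UMI. Outside the neutrophil rule 58 Eed iKO-D barcodes had at least 5, and 15 had at least 100.

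Within Eed iKO-D, the other specific granule transcripts were higher where the marker set was found, and most cytokine transcripts were lower. Ngp was at 9150 CPM in the 52 immature barcodes, Camp at 6180 and Ltf at 3722, values that define the set. Of 10231 genes with at least 20 UMIs over the immature and zero sets, 2603 (25.4%) were higher by 1.5-fold or more in the immature set and 2342 (22.9%) lower, and the median log2 ratio over genes was 0.07. With the 5 RNAs left out of the totals, 1892 were higher and 3041 lower, so that the split depends on the scale. Over single-class barcodes 1751 of 8754 genes were higher and 2769 lower. All of these comparisons share the contrast that chose the cells and are descriptions. Of the 6689 Ngp and 4483 Camp UMIs of Eed iKO-D neutrophils, 843 and 157 lay in single-class barcodes. The deepest immature barcode, with 114067 UMIs, held 12 marker UMIs and also met another rule. List counts, CPM and folds for the immature set below are over all 52 barcodes unless another set is named. The list counts were not repeated on single-class barcodes, and single-class levels are given for some genes only. Of the 52, 23 also met another rule, and summed levels weigh deep barcodes more. The list counts stand beside 25.4% of all genes higher and 22.9% lower.

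Among specific granule genes other than the 3 markers, 13 of 13 tested were higher (median log2 ratio 3.37) and 0 lower. Of all genes 25.4% were higher. Because the cells were chosen on specific granule transcripts and the filter sums both sets, this count is a description and no independent evidence. Lcn2 was at 6414 CPM in the immature set, 1043 in barcodes with 1 to 4 marker UMIs and 621 in those with 0, 10.3-fold [9.83 to 10.9] between the ends.  Cd177, a surface protein of neutrophil subsets, was at 562, 43.4 and 11.6 CPM, 48.6-fold [35.6 to 68.0]. Over single-class barcodes the gap in Cd177 was smaller, at 450 CPM in the immature set against 12.9 in the zero set. The secreted lectin Chil3 was at 1387, 66.7 and 41.0 CPM, and monocytes of the same library held 1166. Its gap was also smaller over single-class barcodes, at 330 CPM in the immature set against 26.1 in the zero set. Ifitm6, an interferon-induced transmembrane protein family member, was at 2241, 350 and 103 CPM, and the collagenase Mmp8 at 892, 282 and 86.4 CPM. Each of these 5 genes was lowest where no marker UMI was found and between in the middle set.

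Later granule products also stood higher in the immature set. The tertiary granule list had 6 of 10 genes higher and 2 lower. Mmp9 (gelatinase B) was at 904 CPM against 166 in the zero set, although 1 barcode gave 43.5% of its UMIs. Retnlg, a resistin-like protein that is part of the membership rule, was at 6325 against 1169 CPM. Of 7 stefins tested, 5 were higher and 0 lower, with Stfa2 at 2045 against 292 CPM. Stefin genes are near-identical copies whose reads can be split between them, so single stefin values are uncertain. The phagocyte oxidase subunits had 4 of 6 higher and 0 lower, led by Cybb (852 against 38.3 CPM, 22.2-fold [18.5 to 26.8]). In single-class barcodes Cybb was at 433 against 36.2 CPM. The calgranulins themselves were 4.40-fold (S100a8, 62118 against 14103 CPM) and 3.38-fold higher (S100a9, 88254 against 26091 CPM). Serpinb1a, an inhibitor of neutrophil serine proteases, was at 371 against 7.61 CPM.

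Primary granule transcripts came from few barcodes. Of 6 genes tested, 5 were higher in the immature set. Elane (neutrophil elastase) had 218 CPM against 0, but 81.7% of its UMIs came from 1 barcode. Prtn3 (proteinase 3) had 377 against 3.94 CPM with 55.0% from 1 barcode, and Mpo (myeloperoxidase) 139 against 0.525 CPM with 62.4% from 1 barcode. Elane, Prtn3 and Mpo passed the UMI filter, which sums both sets, only through the immature set. That set was itself chosen on granule transcripts. The count of 5 of 6 was therefore largely fixed by the choice of cells and genes, and nothing further is read from it. In the 29 immature single-class barcodes Elane was at 8.57 CPM, Prtn3 at 34.3 and Mpo at 25.7. Cebpe, the transcription factor of specific granule genes, was at 60.7 against 0.788 CPM and at 8.57 against 0.943 CPM in single-class barcodes. The single-class levels of Elane, Prtn3, Mpo and Cebpe rest on few UMIs, and no gap is read from them.

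Proliferation genes separated the immature barcodes. Over all 52, 13 of 14 cell cycle genes were higher and 0 lower (median log2 ratio 1.61), with Mki67 at 206 against 47.8 CPM and Hist1h1b at 686 against 37.0 CPM. In single-class barcodes Mki67 was at 51.5 against 51.9 CPM and Top2a at 77.2 against 55.3 CPM. Of the 52 immature barcodes 23 also met another rule, and 19 of these met the monocyte rule (Lyz2 with Ly6c2, Ccr2, F13a1, Csf1r or Cx3cr1). Lyz2 and Ly6c2 are also made by neutrophil precursors, and Ly6c2 was at 380 CPM in the immature set, at 17.9 in the zero set and at 170 in monocytes. Whether these 23 were 1 cell or 2 was not tested.

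Cytokine genes went the other way, with 19 of 22 lower, 1 higher and a median log2 ratio of −1.96. Il1b was at 787 CPM [723 to 854] in the immature set, 7911 in the middle set and 8358 in the zero set, 10.6 times lower at one end than at the other. The chemokine Ccl3 was at 89.7, 1104 and 1048 CPM and Ccl4 at 56.6, 504 and 671 CPM. Il1a was at 24.8, 222 and 284 CPM, and Il23a, a subunit of interleukin 23, at 2.76, 123 and 148 CPM. For Il1b and Ccl3 the middle set resembled the zero set in level, unlike the granule genes. The neutrophil attractant Cxcl2 was at 2105 CPM in the immature set and 14068 in the zero set. Over the single-class barcodes the gaps were smaller but kept their direction: Il1b was at 2157 against 9587 CPM, Cxcl2 at 4802 against 15303 and Ccl3 at 202 against 1118.

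Sensors and receptors of the inflammatory response were lower in the immature set. Of 21 genes of Toll-like receptor and NF-kappa-B signalling, 15 were lower and 0 higher, with the inflammasome sensor Nlrp3 at 124 against 1337 CPM and the inhibitor Nfkbia at 969 against 3020 CPM. Ccrl2, an atypical chemerin receptor, was at 60.7 against 1334 CPM, 21.96 times lower. The coagulation factor gene F10 (30.4 against 324 CPM), the stress phosphatase regulator Ppp1r15a (34.5 against 436 CPM) and the lectin receptor Clec4n (13.8 against 214 CPM) followed. Over single-class barcodes Ccrl2 was at 150 against 1506 CPM, F10 at 47.2 against 365 and Clec4n at 42.9 against 244. For these genes the gaps were smaller but kept their direction. Chemotaxis and growth factor receptors had 11 of 16 lower and 2 higher, and the 11 include Csf3r and Il1r2, which are part of the membership rule. Csf3r, the receptor for granulocyte colony-stimulating factor, was at 200.1 against 697 CPM, and Cxcr2 at 377 against 464 CPM, less than 1.5-fold apart. Single-class barcodes held Csf3r at 394.5 against 795 CPM and Cxcr2 at 690 against 532 CPM. Genes tied to tumour neutrophil states had 18 of 24 lower and 2 higher, among them Cd274 (PD-L1), at 41.4 against 301 CPM, and Ptgs2 (cyclooxygenase 2), at 179 against 1250 CPM.

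**Figure D3:**
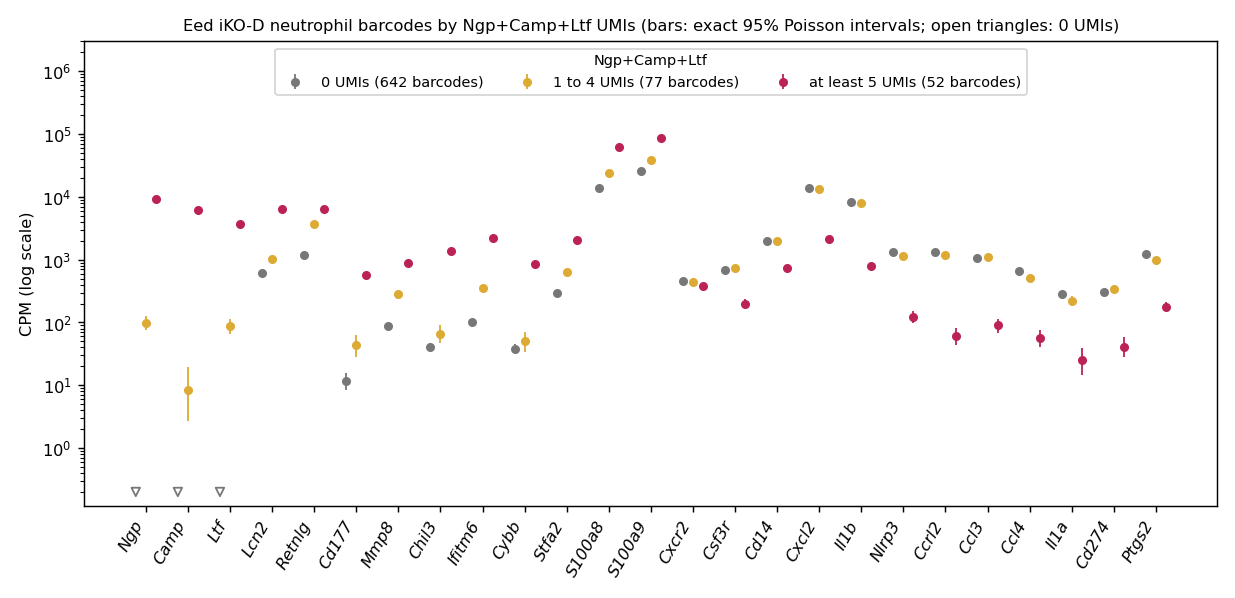
CPM (y axis, log scale) of 25 genes in Eed iKO-D neutrophils with 0, 1 to 4 and at least 5 UMIs of Ngp, Camp and Ltf. Bars are exact 95% Poisson intervals and open triangles mark 0 UMIs. From Lcn2 to S100a9 the immature set is highest, and from Csf3r to Ptgs2 it is lowest, with Cxcr2 nearly level.

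Depth differed between the sets, with medians of 9334 UMIs in the immature set and 5036 in the zero set, and so did the 5 RNAs (14.1% against 25.04%) and the keratins (34.3 against 66.7 per 10000). After thinning to 1000 UMIs, Lcn2 was found in 96.2% [86.8 to 99.5] of 52 immature and 25.9% [22.5 to 29.4] of 642 zero barcodes, and Mmp8 in 59.6% and 6.39%. Il1b was found in 36.5% [23.6 to 51.0] and 92.4%, and Nlrp3 in 7.69% and 60.3%. Cxcr2 was found in 36.5% and 36.5%. Within 4000 to 10000 UMIs, a range chosen after seeing the data that held 22 immature and 460 zero barcodes, Lcn2 was at 5716 against 618 CPM and Il1b at 2422 against 9907 CPM.

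**Figure D4:**
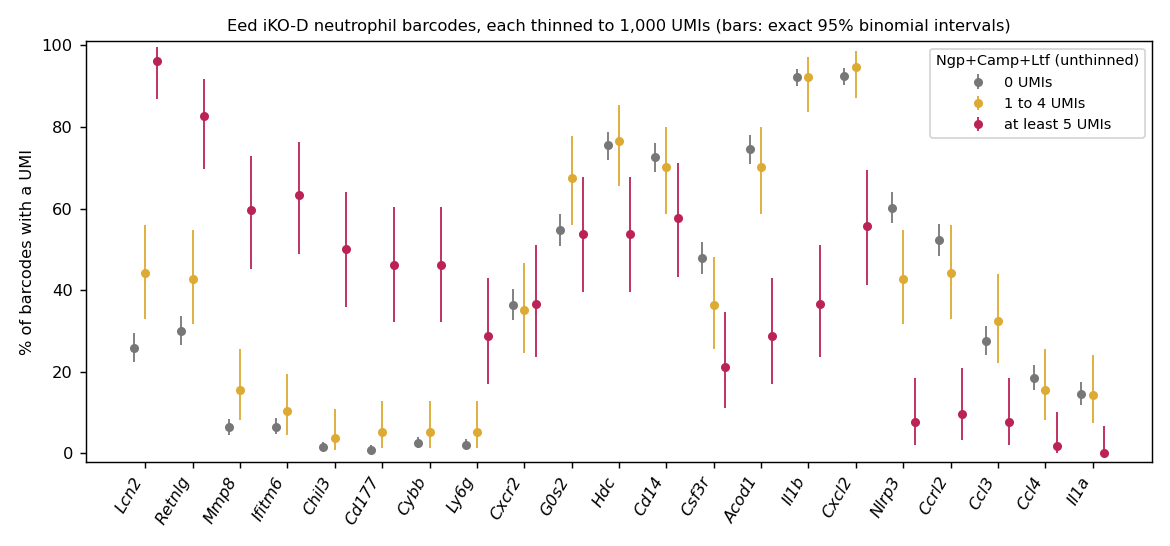
Share of Eed iKO-D neutrophil barcodes with at least 1 UMI of a gene (y axis, percent) after thinning each to 1000 UMIs, for 21 genes and the 3 marker sets. Bars are exact 95% binomial intervals. Lcn2 is at 96.2% in the immature set and 25.9% in the zero set, Il1b at 36.5% and 92.4%, and the 3 sets lie close together for Cxcr2.

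Between the libraries, summed levels over all members depended on the barcodes that also met another class rule. Of 10820 genes with at least 20 UMIs, 3910 (36.1%) were at least 1.5 times higher in Eed iKO-D, and 2616 (24.2%) were lower by that factor. The 10 genes furthest below Ctrl-D by the naming rule are known from keratinocytes and other epithelia: Cst6, Defb6, Sprr2i, Krt79, Sprr2a3, Sprr2j-ps, Ly6g6c, Dapl1, Krt1 and Klk7. Cst6, a cystatin of the cornified layer, was at 4493 CPM over all Ctrl-D members and at 37.5 CPM over single-class ones, and Krt1 at 999.9 and 81.3 CPM. With the 5 RNAs left out of the totals, 5082 were higher and 1811 lower over all members. Furthest higher by the same rule were Ngp, Camp, Ltf, Csta2, Camk1d, Cdk8, Vmn2r96, Hist1h1b, Grik1 and Cmss1. Library values below are those of single-class barcodes unless all members are named. Of 9345 genes then tested, 3141 (33.6%) were higher in the Eed iKO-D library and 2648 (28.3%) lower. Without the 5 RNAs in the totals the same counts were 4019 (43.0%) and 1514 (16.2%), and the median log2 ratio over genes moved from 0.00 to 0.36. Single-class Ctrl-D barcodes held 159922 UMIs, far fewer than the 3911364 of the other library, and the filter sums both sets. On all UMIs, the call of a gene near the filter could therefore turn on whether any Ctrl-D UMI was found. Genes without Ctrl-D UMIs, such as Ngp and Camp, could only be called higher. These shares and the list counts below are partly set by the filter.

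Of the 15 transcripts with the highest levels over Eed iKO-D members, 7 were within 1.5-fold in single-class barcodes (S100a9, S100a8, Cxcl2, Il1b, S100a6, Ifitm1 and Cebpb). In Eed iKO-D, 6 were lower (Fth1, Malat1, Tmsb4x, Srgn, Actb and Nfkbia) and 2 higher (Krt14 and Fabp5), and Malat1 and Actb came within 1.5-fold without the 5 RNAs. S100a9 was at 41058 CPM [40070 to 42063] in Ctrl-D against 34457 [34273 to 34641] in the Eed iKO-D library, and S100a8 at 23080 and 19610. Cxcl2 was at 17965 and 14572 CPM, and Il1b at 8248 and 9024. The iron store subunit Fth1 was at 36724 and 13945 CPM and the granule proteoglycan Srgn at 18121 and 5947 CPM. Among less abundant neutrophil genes, Acod1 was at 2864 and 2599 CPM and the lectin receptor Clec4e at 3026 and 2367. S100a9, S100a8, Cxcl2, Il1b, Acod1 and Clec4e were less than 1.5-fold apart on the scale of all UMIs and on that without the 5 RNAs.

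Specific granule genes were higher in Eed iKO-D for 9 of 15 tested and lower for 5, against 33.6% and 28.3% of all genes. Over all members 13 of 16 were higher and 0 lower. Ngp had 0 UMIs in Ctrl-D against 843 in the Eed iKO-D library (216 CPM), at least 11.5-fold higher against a floor of 3 UMIs over the Ctrl-D set. Camp was at 0 and 40.1 CPM, and Ltf at 6.25 CPM (1 UMI) and 79.5 CPM, a ratio of 12.7 [2.27 to 504]. Over all members the Eed iKO-D levels were 1303 CPM for Ngp, 873 for Camp and 536 for Ltf. Lcn2 was at 463 CPM in Ctrl-D against 986 in the Eed iKO-D library (2.13-fold [1.69 to 2.72]) and Mmp8 at 43.8 and 183 (4.19-fold [2.02 to 10.4]). Hp, Cybb, Olfm4, Lyz2 and Ceacam10 were the 5 lower genes. Without the 5 RNAs in the totals, Cybb and Olfm4 remained lower.

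Interferon-induced genes were lower in Eed iKO-D for 11 of 16 tested and higher for 4, against 28.3% and 33.6% of all genes. The median log2 ratio was −1.36, and 9 stayed lower without the 5 RNAs, against 16.2% of all genes. Over all members 10 of 17 were lower and 4 higher. There Isg15, a ubiquitin-like modifier, was at 339 and 42.9 CPM. In single-class barcodes it was at 563 CPM [453 to 692] in Ctrl-D against 49.9 [43.1 to 57.4] in the Eed iKO-D library, 11.3 times lower. After thinning it was found in 25.7% [17.7 to 35.2] of 105 Ctrl-D and 4.02% [2.75 to 5.66] of 771 Eed iKO-D members, and in 6.98% and 0.708% of 301 and 565 sampled epithelial barcodes. Its epithelial level was also lower, at 80.1 CPM in Ctrl-D against 2.96 in the Eed iKO-D library. The guanylate-binding proteins Gbp2 (225 and 27.9 CPM) and Gbp5 (231 and 5.63 CPM) were lower as well. Slfn4, a myeloid Schlafen gene, was higher in Eed iKO-D, at 125 and 236 CPM. The list was chosen with earlier results of these data known, and its direction is no independent evidence.

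Antigen presentation genes followed, with 7 of 11 listed genes lower and 2 higher, against 28.3% and 33.6% of all genes. The class I pathway genes B2m, H2-D1, H2-K1, H2-Q7 and Tap1 were lower and were the 5 that stayed lower without the 5 RNAs. Class II genes were mixed, with H2-Aa lower and H2-Ab1 higher. The co-stimulators Cd80 and Cd86 were lower and higher. Over all members 5 were lower and 5 higher. B2m, the light chain of class I molecules, was at 1763 and 695 CPM and H2-K1 at 594 and 215 CPM. In epithelial barcodes B2m was at 1382 and 294 CPM and H2-K1 at 837 and 211 CPM, so the direction was the same outside neutrophils. H2-Q10, a class I gene on chromosome 17 with close copies whose reads may be split, was at 482 and 48.1 CPM in neutrophils and at 5.35 CPM or less in the other classes that had at least 50 barcodes.

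Toll-like receptor and NF-kappa-B genes were lower in Eed iKO-D for 17 of 21 tested and higher for 0, against 28.3% and 33.6% of all genes. Without the 5 RNAs 10 stayed lower, against 16.2% of all genes. Over all members 2 were lower and 1 higher, with a median log2 ratio of −0.04, so the count from summed UMIs depends on barcodes that met another rule. In Ctrl-D these held 58.9% of the summed UMIs. Per barcode, the listed genes together had a median of 276 per 10000 UMIs in Ctrl-D (quartiles 190.5 and 349.3). In Eed iKO-D the median was 114 (quartiles 72.0 and 160.5). Cd14, the lipopolysaccharide co-receptor, was at 8110 CPM [7675 to 8564] in Ctrl-D against 2209 [2162 to 2256] in the Eed iKO-D library, 3.67 times lower. After thinning it was found in 94.3% [88.0 to 97.9] and 71.3% [68.0 to 74.5] of members, against 0.332% and 1.95% of the sampled epithelial barcodes. Over all members Cd14 was at 3627 and 1838 CPM. Nfkbia was at 6878 and 3121 CPM and Tlr4 at 394 and 155 CPM. Among the named genes furthest lower were also Thbs1 (thrombospondin 1; 2120 and 216 CPM), the protease inhibitor Slpi (2207 and 429 CPM), Txnip (969 and 185 CPM) and the signalling adaptor Dapp1 (732 and 146 CPM). The remaining 5 by the same naming rule were Crlf3, Epgn, St3gal6, Ubb and the H2-Q10 gene given above.

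Chemotaxis and growth factor receptors were lower for 8 of 16 and higher for 0, against 28.3% and 33.6% of all genes. Without the 5 RNAs 5 stayed lower, against 16.2% of all genes. The list holds Csf3r, Cxcr2 and Il1r2, which are part of the membership rule. Csf3r and Cxcr2 were among the 8 and Csf3r among the 5, so these counts are partly a description of the rule. Over all members 1 was lower and 2 higher (median log2 ratio 0.08). The marrow retention receptor Cxcr4 was at 575 CPM [464 to 706] and 155 [143 to 168], and found in 38.1% and 13.1% of thinned members. Cd274 was at 1251 and 321 CPM and found in 51.4% and 19.6% of thinned members. Cxcr2 was at 1025 and 536 CPM, a ratio of 0.522 on all UMIs and 0.671 without the 5 RNAs, which lies within 1.5-fold. Over all members with at least 1000 genes a barcode, which left 11 Ctrl-D barcodes of which 8 also met another rule, Cd14, Cd274, Cxcr4, Cxcl1, Txnip, Gbp2, H2-Q10, Dapp1 and St3gal6 were higher in Eed iKO-D.

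Of 21 cytokines tested, 9 were lower in Eed iKO-D and 4 higher, against 28.3% and 33.6% of all genes. Without the 5 RNAs 8 were lower and 6 higher, against 16.2% and 43.0% of all genes. Over all members the balance was the opposite, with 12 of 22 higher and 5 lower (median log2 ratio 0.72). Of all genes 36.1% were then higher and 24.2% lower. Cxcl1 (994 and 261 CPM), Cxcl3 (1776 and 745 CPM), Ccl4 (1501 and 673 CPM) and the receptor antagonist Il1rn (1201 and 469 CPM) were lower on both scales. Il23a, Vegfa, Il6 and Il10 were the 4 higher genes, and Vegfa, the vascular growth factor, was at 81.3 and 171 CPM. Il6 and Il10, and over all members also Lif, had 0 Ctrl-D UMIs and could only be called higher.

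Of 25 glycolysis and hypoxia genes 9 were higher in Eed iKO-D, a share close to the 33.6% of all genes, and 0 were lower. Without the 5 RNAs 17 were higher, against 43.0% of all genes, and over all members 12 were higher and 3 lower. The glucose transporter Slc2a1 was at 125 CPM [76.4 to 193] in Ctrl-D against 347 [329 to 366] in the Eed iKO-D library, the oxidase Ero1l at 194 and 428 CPM and the prolyl hydroxylase P4ha1 at 37.5 and 190 CPM. Epithelial barcodes moved the same way, with Slc2a1 at 190 and 551 CPM and P4ha1 at 52.2 and 154 CPM. Keratin transcripts in neutrophil barcodes were also higher in Eed iKO-D, as given above, and the part of epithelial RNA in these values was not tested.

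Of 9 lipid mediator genes 3 were higher in Eed iKO-D (Alox5, Ptgs2 and Ptges) and 2 lower (Ltc4s and Pla2g7), near the 33.6% and 28.3% of all genes. Without the 5 RNAs 6 were higher and 2 lower, and over all members 6 of 10 were higher and 1, Ptges, lower. Ptgs2 was at 281 CPM [205 to 377] and 1227 [1193 to 1262], and found in 19.0% and 46.9% of thinned members and in 7.64% and 28.5% of the sampled epithelial barcodes. Wfdc17, a whey acidic protein made by activated myeloid cells, was at 738 and 2322 CPM and found in 21.0% and 56.3% of thinned members. Nos2, the inducible nitric oxide synthase, was at 6.25 CPM (1 UMI) and 97.2 CPM, a ratio of 15.5 [2.77 to 615].

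**Figure D5:**
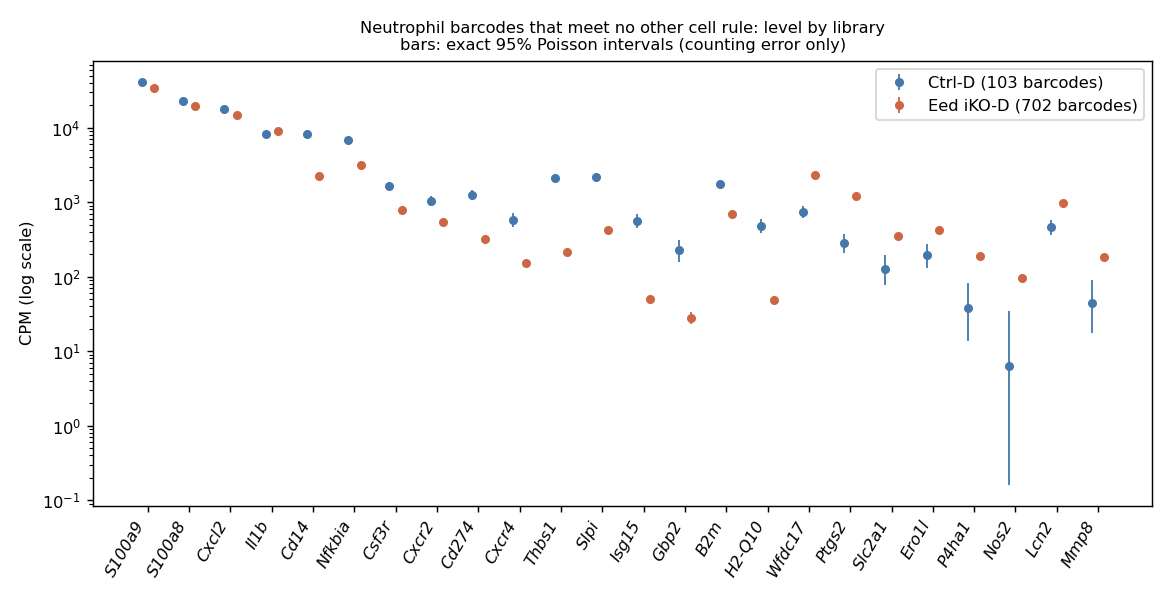
CPM (y axis, log scale) of 24 genes in neutrophil barcodes that meet no other cell rule, with 103 from Ctrl-D and 702 from Eed iKO-D. Bars are exact 95% Poisson intervals. S100a9, S100a8, Cxcl2 and Il1b lie close together, Cd14 to H2-Q10 are lower in Eed iKO-D and Wfdc17 to Mmp8 higher.

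Other genes furthest higher in Eed iKO-D were also found in other cell classes. Cdk8 was at 81.3 and 1627 CPM in neutrophils, and T cells of Eed iKO-D held 1189 CPM. Vmn2r96 was at 6.25 and 158 CPM, with 60.1 CPM in Eed iKO-D monocytes. Grik1 was at 6.25 and 151 CPM, with 81.7 CPM in Eed iKO-D T cells. Fibroblast transcripts were present as well, with 9 of 9 markers higher, against 33.6% of all genes. Col1a1, Col1a2, Pdgfra and Dpt had 0 Ctrl-D UMIs and could only be called higher. Col1a1 was at 0 and 792 CPM in neutrophils against 14448 CPM in Eed iKO-D fibroblasts.

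Eed itself was low in neutrophils of both libraries. It had 11 UMIs in Ctrl-D (68.8 CPM [34.3 to 123]) and 26.1 CPM [21.3 to 31.7] in Eed iKO-D, a ratio of 0.379 [0.203 to 0.783]. Epithelial barcodes, the cells that the Cre driver addresses, held 48.1 and 42.3 CPM of Eed, and T cells 91.3 and 95.4 CPM. Without the 5 RNAs in the totals the ratio in neutrophils was 0.487. Which exon is floxed is not given in the sources used here, and transcripts counted by gene need not report its loss.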

How the data were processed

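Both libraries were 10x single-cell RNA libraries. The authors deposited raw UMI counts per gene and barcode, per the file headers made with Cell Ranger 7.1.0; the extract protocol in the labels names version 2.1.0 and the submitters' processing notes name version 8.0 and the build mm10. No normalization had been applied. Barcodes with at least 500 genes and at most 15% mitochondrial UMIs were kept. Gene IDs sharing a symbol were summed. The members and gene lists were chosen with earlier results of these data known. No cell annotation file was used, and classes were defined by marker rules. No doublet caller was run, and barcodes meeting 2 class rules were left out as an alternative.

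UMIs were summed per set and divided by the set's total (CPM). A gene was called higher or lower at 1.5-fold among genes with at least 20 UMIs over both sets, after adding 0.5 UMI to each. Intervals are exact 95% Poisson, binomial (Clopper-Pearson) or conditional binomial. With 1 library a group no p-value was computed. For naming, genes were ranked by log2 ratio with 5 CPM added to each side and the first 10 in each direction taken, among genes with at least 50 UMIs and 50 CPM on the higher side and not over 3 times that level in another class of at least 50 barcodes, without membership, mitochondrial, ribosomal, haemoglobin, immunoglobulin, receptor segment, clone and sex-linked genes. The 15 highest levels, the 15 most above other classes and list members were also eligible. The rule was repeated on single-class barcodes without the 5 RNAs. Computation used Python 3.11.15 with numpy 2.4.6 and scipy 1.17.1, and scripts were tested on simulated data. Library totals were 120500892 UMIs in Ctrl-D against 289511009 in the Eed iKO-D library.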

Additional observations from a re-analysis of the deposited data

How the results depend on the processing

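Values are log2 differences of Eed iKO-D over Ctrl-D, or counts of genes at 1.5-fold, and the cause of a change was not tested unless the setting itself tests fewer barcodes or genes. No paired analysis was possible because each group was 1 library with no shared replicate number. Of the comparisons' own values, 59 stayed close to the value over all members under an alternative and 23 moved. The Ctrl-D neutrophil share was 1.896% with at least 200 genes and 0.1555% with at least 1000. The Eed iKO-D share was 5.834% with at least 1000 genes, 2.588% at an S100 limit of 200 and 3.268% without barcodes meeting another rule. The immature share of Eed iKO-D was 9.173% at the S100 limit of 200 and 4.131% without barcodes meeting another rule, and Ctrl-D had 0 throughout.

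Between libraries, thinning to 1000 UMIs gave 1240 higher and 1335 lower genes. Lower genes numbered 8302 with a filter of 1 UMI, 1588 at 2-fold and 1514 without mixed barcodes and the 5 RNAs. Immature against zero, higher genes numbered 1056 after thinning, 1650 with at least 50 UMIs, 7222 with at least 1 UMI, 1327 at 2-fold, 1549 with barcodes weighted equally, 713 within 1000 to 4000 UMIs and 1726 within 4000 to 10000. Lower genes numbered 1115 after thinning, 4102 with at least 1 UMI, 1414 at 2-fold and 955 within 1000 to 4000 UMIs.

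Among the named genes, 39 library values and 3 immature values changed sign against the value over all members. Library values in the Results are instead those of single-class barcodes unless all members are named. For Krt14, Cxcl2, S100a8 and S100a9 the signs without mixed barcodes below are those given in the Results. With at least 1000 genes, 11 Ctrl-D barcodes remained, and Gbp2 was at 1.27, H2-Q10 at 0.77, Txnip at 2.27, Dapp1 at 0.94, Cd14 at 1.67, Cd274 at 2.03, Cxcr4 at 3.19, Cxcl1 at 1.32 and St3gal6 at 1.17. At an S100 limit of 200, Krt14 was at 2.14, Il1b at −0.29, Cxcl2 at −0.69, S100a9 at −0.01, Scd2 at 3.99, Dsc2 at 4.01 and Epgn at 1.41. With at least 3 receptor UMIs Dsc2 was at 0.98. Without mixed barcodes Krt14 was at 1.17, Cxcl2 at −0.30, S100a8 at −0.24, S100a9 at −0.25, Scd2 at 4.17 and Dsc2 at 4.16. After thinning Krt14 was at 1.36, Cxcl2 at −0.27, S100a8 at −0.39, S100a9 at −0.29, Scd2 at 1.06 and Dsc2 at 4.09. With equal weights Krt14 was at 1.27, Cxcl2 at −0.21, S100a8 at −0.33, S100a9 at −0.29, Scd2 at 2.26, Dsc2 at 2.61 and Epgn at 0.07. Without mixed barcodes and the 5 RNAs Krt14 was at 1.54, Scd2 at 4.53 and Dsc2 at 4.52. Within 1000 to 4000 UMIs, which left 8 immature and 151 zero barcodes, Clec4n was at 0.04, Stfa2 at −1.12 and Ifitm3 at −0.47 for immature over zero. Single-class Ctrl-D barcodes held 159922 UMIs in all, which limits the precision for genes of few UMIs.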

Other observations

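Neutrophils without granule markers were also compared by their chemokine level. The split fixes the difference in Ccl3 and Ccl4, and the other genes share the contrast that chose the cells, so all values are descriptions. The 602 single-class Eed iKO-D neutrophils with 0 UMIs of Ngp, Camp and Ltf were divided by the chemokines Ccl3 and Ccl4, a division chosen after values were seen: 178 had at least 10 UMIs of both per 10000, 263 had 0 and 161 lay between. Median depth was 5060 UMIs in the first set and 4709 in the second. Of 7429 genes, 593 (7.98%) were at least 1.5 times higher in the chemokine-rich set and 1351 (18.2%) lower. Il1a, an alarmin cytokine, was at 726 against 131 CPM (ratio 5.54 [4.68 to 6.59]), Cxcl3 at 1499 against 418 CPM, Tnf at 440 against 136 CPM and F10 at 736 against 159 CPM. The matrix protein gene Spp1 (278 against 53.1 CPM), the receptor gene Hcar2 (733 against 209.5 CPM), the lipid droplet gene Hilpda (746 against 350 CPM) and Cd274 (553 against 218 CPM) were also higher. Of these higher genes, only Spp1 (725 CPM in monocytes) and Tnf (459 CPM in C1q macrophages) stood higher still in another class. Samhd1 (110.5 against 352 CPM) and Ifitm6 (47.8 against 141 CPM) were lower. S100a8 was at 14544 against 15674 CPM, Retnlg at 1297 against 1173, Siglecf, a marker of some tumour neutrophils, at 17.0 against 20.0, and keratin Krt14 at 3351 against 3812, all within 1.5-fold.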
